A study of Danio rerio with 2 samples.

Results

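The Rag GTPases of zebrafish larvae are described here by their transcripts on a quantitative PCR array of mTOR signaling. The genes were taken as all those whose symbol on the array starts with rrag, which gave 3 of the 89 genes, namely *rraga* (RefSeq NM_199714), *rragca* (NM_001020635) and *rragd* (NM_001099424). The array names RRAGB as another name of its *rraga*, and *rragca* is one of the fish copies of *rragc*. The gene table of the assembly GRCz12tu lists 4 rrag genes, and the remaining one, *rragcb*, was not analysed here.

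Rag GTPases are small G proteins that tell the kinase complex mTORC1 whether amino acids are present. As known from mammalian cells, they work as pairs on the surface of the lysosome, with RagA or RagB as one partner and RagC or RagD as the other. When amino acids are plentiful, the A or B partner is loaded with GTP and the C or D partner with GDP, and the pair then binds Raptor and brings mTORC1 to the lysosome, where the GTPase Rheb can switch it on. The C and D partners also hold the transcription factor TFEB at the lysosome, and in mammalian cells the gene of RagD is itself switched on by TFEB and its relatives.

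The larvae were *NOD1-1IS*-/- zebrafish, homozygous for a 1 bp insertion made with Cas9 in the gene of the cytosolic peptidoglycan sensor NOD1, and wild-type (WT) AB/TU zebrafish. Each genotype had 3 biological replicates at 10 dpf, each a pool of 200 to 250 whole larvae, so that fewer cells of a type and less RNA per cell cannot be told apart. The array reads each gene by 1 primer pair in 1 well, and the deposited value is the threshold cycle (Ct), the cycle at which the SYBR Green signal crosses a threshold. The 534 gene wells crossed it at 14.6 to 29.0 of 40 cycles, without exception. The positive PCR control, a fixed template, lay between 19.3 and 19.7 cycles on average in the *NOD1-1IS*-/- replicates. It lay at 19.7 cycles in each WT replicate. The genomic DNA wells hold no Ct value in either genotype, so they were not used as a check for genomic DNA. The reverse transcription control wells also hold no value in either genotype, so the efficiency of reverse transcription was not checked by them. The transcript of *nod1* was not analysed here, so the genotype labels were not checked by it. Expression is given as ΔCt, for which the average of the *rpl13a*, *nono* and *hprt1* wells of a replicate is subtracted from the Ct of the gene. A ΔCt that is 1 cycle higher stands for a 2-fold lower level if each cycle doubles the product.

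The Rag gene *rragd* was 5.1-fold lower in *NOD1-1IS*-/- larvae than in WT larvae (95% interval 3.91- to 6.65-fold, n = 3 each), whereas *rraga* and *rragca* did not pass the test. The C-type partner *rragca* was at 0.97 times and the A-type partner *rraga* at 0.89 times its WT level. Of the 3 Rag genes, 1 was thus lower with an adjusted p under 0.05 from limma, 0 were higher and 2 were not called, while 22.6% of the 84 pathway genes were called by the same test, 19% as lower and 3.57% as higher.

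The raw Ct of *rragd*, the gene of the D-type partner, was 28.4, 28.3 and 28.9 cycles in *NOD1-1IS*-/- replicates 1, 2 and 3, and 26.7, 26.2 and 26.5 cycles in WT replicates 1, 2 and 3. Even before any normalization, each mutant pool therefore crossed the threshold later than each WT pool, by 2.05 cycles on average. On raw Ct, 50% of the 84 pathway genes did not overlap between the genotypes, in either direction. The ΔCt of *rragd* was 9.12, 8.85 and 9.58 cycles in the *NOD1-1IS*-/- replicates and 7.0, 6.73 and 6.78 cycles in the WT replicates. The genotypes did not overlap, and the gap of 1.86 cycles between the nearest replicates of the genotypes was larger than the widest range within a genotype, 0.722 cycles in *NOD1-1IS*-/-. The mean ΔCt was 9.18 ± 0.37 cycles in *NOD1-1IS*-/- and 6.83 ± 0.14 cycles in WT (SD, n = 3 each). The log2 fold change was −2.35 (standard error 0.17, 95% interval −2.73 to −1.97, adjusted p = 4.08e-06 from limma over the 84 pathway genes, Benjamini-Hochberg). In a two-sided exact permutation test p was 0.1, which is the smallest that 3 replicates against 3 can give. Across the pathway genes 38.1% did not overlap between the genotypes on this scale, 28.6% of all being lower, and 4.76% were at least 2-fold lower in *NOD1-1IS*-/-. The spread of *rragd* between the mutant pools was the 6th largest of the 84 genes, against the 35th largest between the WT pools.

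The deposited normalized values come from the same Ct and the same 3 reference genes. They therefore give the same contrast by construction, without a spread between replicates. The authors' value of *rragd*, 2 to the power of −ΔCt over the mean of the replicates, was 0.00172 in *NOD1-1IS*-/- and 0.00876 in WT. For *rraga* it was 0.223 in *NOD1-1IS*-/- and 0.250 in WT, and for *rragca* it was 0.255 in *NOD1-1IS*-/- and 0.262 in WT.

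The gene *rraga* codes for the partner that carries GTP when amino acids are present. Its ΔCt was 2.03, 2.11 and 2.36 cycles in the *NOD1-1IS*-/- replicates and 2.21, 1.89 and 1.90 cycles in the WT replicates. The genotypes overlapped, with WT replicate 1 later than the first and second mutant replicates. The log2 fold change was −0.17 (standard error 0.13, 95% interval −0.46 to 0.12, adjusted p = 0.394 from limma), with an exact permutation p of 0.3 (two-sided). The interval runs from 0.727 to 1.09 times the WT level.

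For *rragca*, a gene of the C-type partner, which can take the place of the D-type partner in a Rag pair, ΔCt was 1.93, 1.86 and 2.13 cycles in the *NOD1-1IS*-/- replicates and 2.01, 2.02 and 1.77 cycles in the WT replicates. The genotypes overlapped, with the lowest value in WT replicate 3 and the highest in *NOD1-1IS*-/- replicate 3. The log2 fold change was −0.04 (standard error 0.12, 95% interval −0.31 to 0.23, adjusted p = 0.834 from limma), with an exact permutation p of 0.7 (two-sided). The interval runs from 0.808 to 1.17 times the WT level. On raw Ct, *rragca* was 21.3 ± 0.15 cycles in *NOD1-1IS*-/- and 21.6 ± 0.11 cycles in WT (SD, n = 3 each) without overlap, as were 50% of the pathway genes, with a shift of −0.26 cycles. The reference genes shifted by −0.19 cycles for *hprt1*, −0.21 for *rpl13a*, −0.51 for *nono*, 0.16 for *b2m* and 0.70 for *acta1b*.

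**Figure D1:**
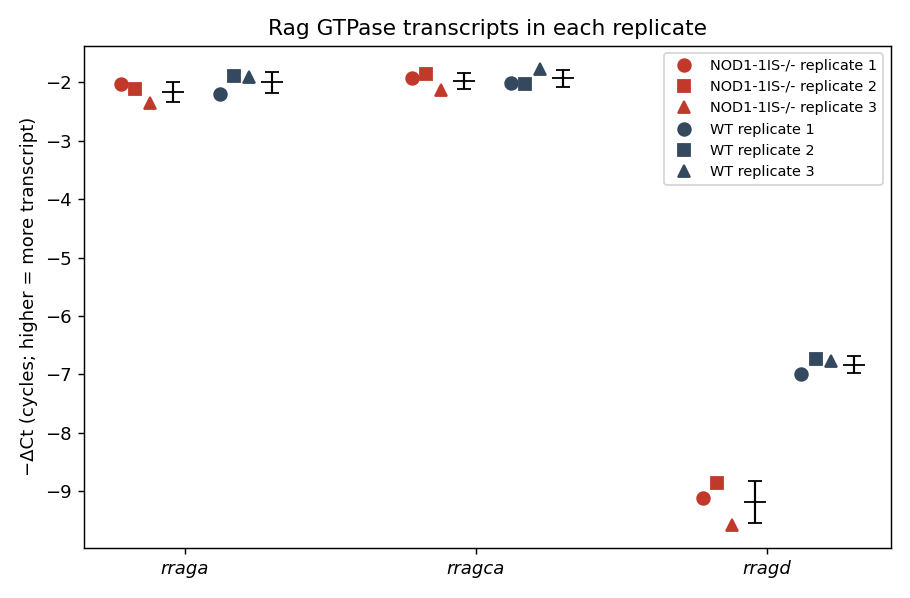
−ΔCt (cycles, relative to *hprt1*, *nono* and *rpl13a*) of the 3 Rag genes in each of the 3 *NOD1-1IS*-/- (red) and 3 WT (blue) replicates, with the mean and SD as black bars. The *rragd* points of *NOD1-1IS*-/- lie between −9.58 and −8.85 and those of WT between −7.0 and −6.73, while the genotypes overlap for *rraga* and *rragca*.

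The genes of a Rag pair were next compared within each replicate, since the difference of their Ct holds no reference gene and is untouched by a plate offset common to all wells. The Ct of *rragd* exceeded that of *rragca* by 7.19, 7.0 and 7.45 cycles in the *NOD1-1IS*-/- replicates, and by 4.99, 4.71 and 5.01 cycles in the WT replicates. The gap between the D-type and the C-type gene was thus wider in each mutant pool than in each WT pool. The share of all gene pairs whose gaps did not overlap between the genotypes was not counted. Of single pathway genes, 38.1% did not overlap on ΔCt and 50% on raw Ct. On average *rragd* came 7.21 ± 0.23 cycles after *rragca* in *NOD1-1IS*-/- and 4.90 ± 0.17 cycles after it in WT (SD, n = 3 each), a change of 2.31 cycles or 4.96-fold in their ratio. Against the A-type gene *rraga*, the gap of *rragd* was 7.09, 6.74 and 7.22 cycles in the *NOD1-1IS*-/- replicates and 4.79, 4.84 and 4.88 cycles in the WT replicates. The average was 7.02 ± 0.25 cycles in *NOD1-1IS*-/- and 4.83 ± 0.04 cycles in WT (SD, n = 3 each), and the ratio of *rragd* to *rraga* was lower by 4.54-fold. Primer pairs can differ in efficiency, so the size of a gap within a genotype does not measure how much more of one transcript there was.

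These 2 pairs and the pair of *rragca* and *rraga* were the 3 pairs of Rag genes compared. In a limma fit of the differences between *rragd* and each of the other 83 pathway genes, the log2 fold change of *rragd* minus that of *rragca* was −2.31 (95% interval −2.78 to −1.84, adjusted p = 5.75e-19) and minus that of *rraga* it was −2.18 (95% interval −2.66 to −1.71, adjusted p = 1.70e-17). All rows of that fit share the noise of *rragd*, limma gave them all the same standard error of 0.24, and these p-values may be too small. In a limma fit over all 3486 pairs of pathway genes, an alternative chosen after seeing the data, the standard error was 0.16 for both pairs, and the adjusted p was 2.83e-06 against *rragca* and 3.07e-06 against *rraga*. Of all 3486 pairs, 28.1% were called in that fit. Exact permutation tests of both gaps gave p = 0.1 (two-sided, no overlap), the smallest possible. In either limma fit the change of *rragd* was called lower than that of 98.8% of the other 83 genes and higher than that of 1.2% of them, so the paralogs were no exception in this respect.

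The pair of *rragca* and *rraga* kept nearly the same gap in both genotypes. The Ct of *rragca* minus that of *rraga* was −0.10, −0.26 and −0.23 cycles in the *NOD1-1IS*-/- replicates and −0.20, 0.13 and −0.14 cycles in the WT replicates, with overlap. The log2 change of *rraga* relative to *rragca* was −0.13 (95% interval −0.45 to 0.20, adjusted p = 0.549 from limma over all gene pairs, exact permutation p = 0.4).

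**Figure D2:**
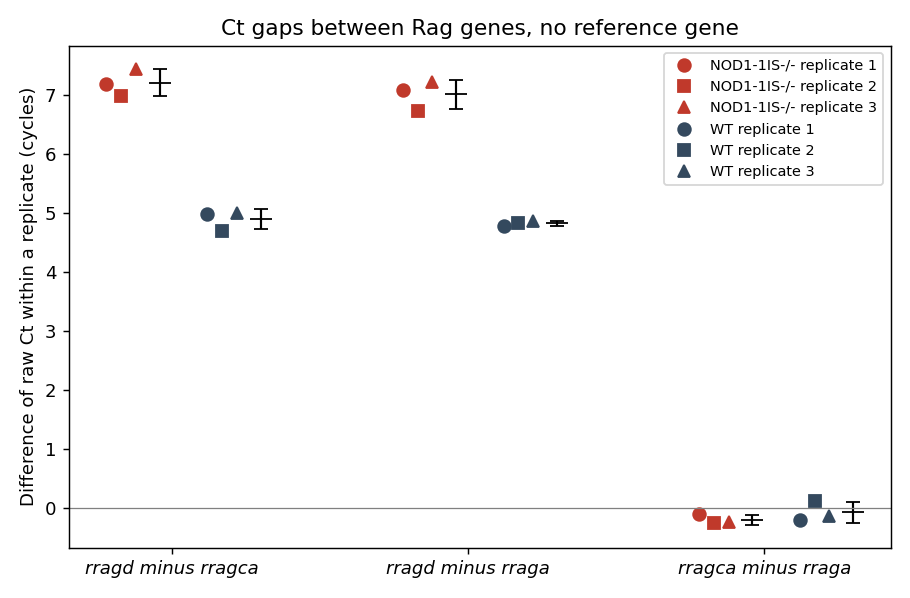
Difference of raw Ct (cycles) between 2 Rag genes within each of the 3 *NOD1-1IS*-/- (red) and 3 WT (blue) replicates, with the mean and SD as black bars. The gaps of *rragd* to *rragca* and to *rraga* lie at 6.74 cycles or more in *NOD1-1IS*-/- and at 5.01 cycles or less in WT, whereas *rragca* minus *rraga* overlaps.

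In the order of ΔCt among the 84 pathway genes, from early to late, *rragd* was the 83rd in *NOD1-1IS*-/- and the 80th in WT. It came before *igf1* alone in *NOD1-1IS*-/-, and the replicates of both genes overlapped there. In WT it came after *prkceb*, with which it did not overlap. The other Rag genes were far earlier in this order, *rraga* as the 26th in *NOD1-1IS*-/- and the 27th in WT, and *rragca* as the 22nd in *NOD1-1IS*-/- and the 26th in WT. In WT, *rragca* and *rraga* were neighbours in the order and their replicates overlapped, at a mean ΔCt of 1.93 and 2.0 cycles. The median ΔCt of the pathway genes was 3.38 cycles in *NOD1-1IS*-/- and 3.22 cycles in WT. This order is one of cycles with different primer pairs and is not corrected for amplicon or primer, so it ranks the wells and only roughly the transcripts.

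Among the transcripts listed here for the lysosomal mTORC1 branch, on which the Rag pair acts, none shifted by as much as *rragd*. The list leaves out *ddit4*, a gene of an mTORC1 inhibitor, which was at −1.87 (adjusted p = 9.89e-05 from limma). Proteins were not measured on this array. Of 16 further genes of the lysosomal mTORC1 branch, 1 was lower, 1 was higher and 14 were not called, where 22.6% of all 84 pathway genes were called. The branch had a median log2 fold change of −0.07, against −0.11 over all 84 pathway genes. The log2 fold changes of the 16 genes lay between −0.37 and 0.37. Among 6 genes of mTORC1 and its partners, *deptor*, an inhibitor of mTOR, was at −0.37 (adjusted p = 0.0383 from limma), and *mlst8*, a subunit that binds the mTOR kinase domain, was at 0.37 (adjusted p = 0.0362). The ΔCt of *deptor* averaged 2.06 ± 0.10 cycles in *NOD1-1IS*-/- and 1.69 ± 0.12 cycles in WT, and that of *mlst8* 4.33 ± 0.12 cycles in *NOD1-1IS*-/- and 4.70 ± 0.03 cycles in WT (SD, n = 3 each). The call of *deptor* was lost in 17 of 20 alternatives and that of *mlst8* in 8 of 20.

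The gene *rptor* codes for Raptor, which the active Rag pair binds, and its log2 fold change was −0.05 without a call, while that of *mtor*, the kinase itself, was −0.14 without a call. None of the 3 genes of the TSC-Rheb switch, which acts on mTORC1 at the lysosome beside the Rag pair, passed the test, which 22.6% of all pathway genes passed. Of these, *tsc2*, whose product turns Rheb off, had the largest value, at −0.35 (adjusted p = 0.0755 from limma), and *rheb* was at −0.07. None of 6 genes for outputs of mTORC1, direct or further downstream, passed it either. There, *rps6kb1b*, a gene of S6 kinase, was at −0.33 (adjusted p = 0.0994) and *ulk1b*, a gene of the kinase that starts autophagy, at 0.28 (adjusted p = 0.0812). Over 20 alternatives these genes gained a call in the same direction, *ulk1b* in 9, *tsc2* in 3 and *rps6kb1b* in 2. The single other gene linked to amino acid input, *pik3c3*, which codes for a lipid kinase of endosomes, was at 0.01.

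**Figure D3:**
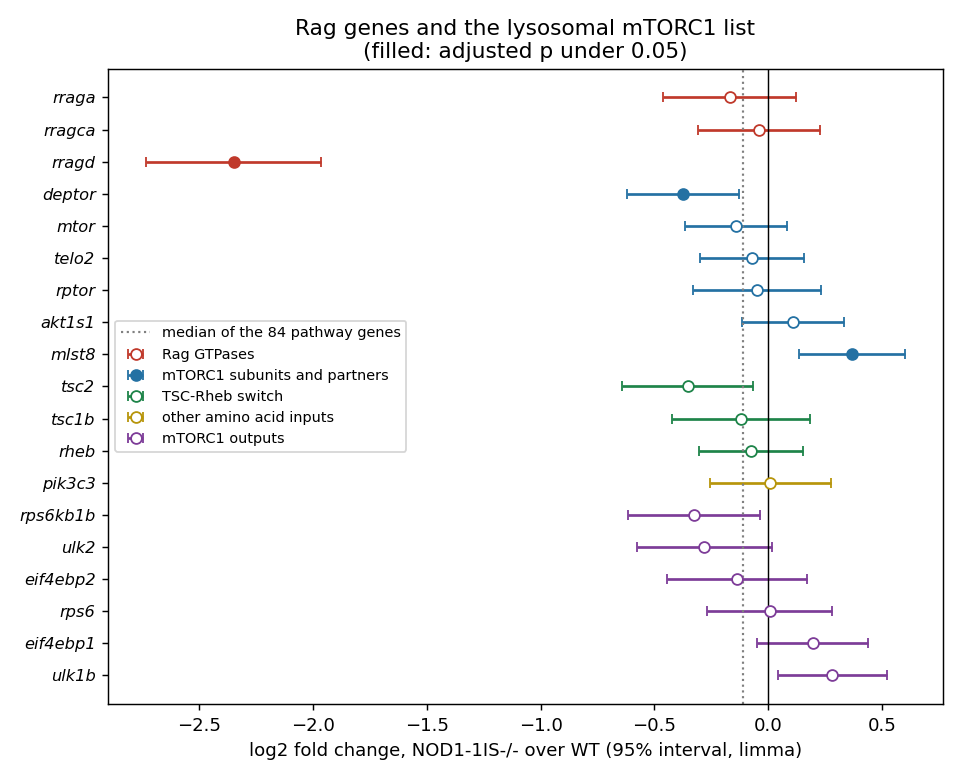
Log2 fold change of *NOD1-1IS*-/- over WT with its 95% interval from limma for the 3 Rag genes and 16 further genes of the lysosomal mTORC1 branch, coloured by role and filled where the adjusted p was under 0.05. The interval of *rragd*, −2.73 to −1.97, lies apart from those of the other genes, whose values are between −0.37 and 0.37, and the dotted line marks the median of the 84 pathway genes at −0.11.

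To find which genes of the array followed *rragd*, each gene was set to its own WT mean, and the root mean square difference between 2 genes was taken over the 6 replicates. The gene nearest to *rragd* was *ddit4*, which codes for REDD1, an inhibitor of mTORC1 that is induced by stress, with a difference of 0.353 on the log2 scale. It was followed by *rps6ka2*, a gene of an RSK kinase, at 0.849, and by *irs1*, a gene of an insulin receptor substrate, at 1.07. Among the other 83 genes *rraga* was the 28th nearest at 1.55 and *rragca* the 49th at 1.64. These 3 nearest genes had log2 fold changes of −1.87, −1.26 and −0.90, so that this likeness is in large part that of the change between genotypes. With *acta1b* as the only reference, *rps6ka2* was at −0.25 (adjusted p = 0.520 from limma) and *irs1* at 0.10, both without a call.

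Relative to its WT mean, *rragd* was at −2.29, −2.02 and −2.74 in *NOD1-1IS*-/- replicates 1, 2 and 3 and at −0.16, 0.11 and 0.06 in the WT replicates. For *ddit4* the values were −1.94, −1.44 and −2.24 in the *NOD1-1IS*-/- replicates and −0.30, 0.22 and 0.09 in the WT replicates. Both genes were lowest in the third and highest in the second mutant pool, and both were lowest in WT replicate 1 among the WT pools. The third mutant pool was also the one in which *rraga*, at −0.36, and *rragca*, at −0.19, were lowest. The log2 fold change of *rragd* minus that of *ddit4* was −0.48, with an adjusted p of 0.0312 in the limma fit over all gene pairs and of 0.0481 in the limma fit relative to *rragd*.

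**Figure D4:**
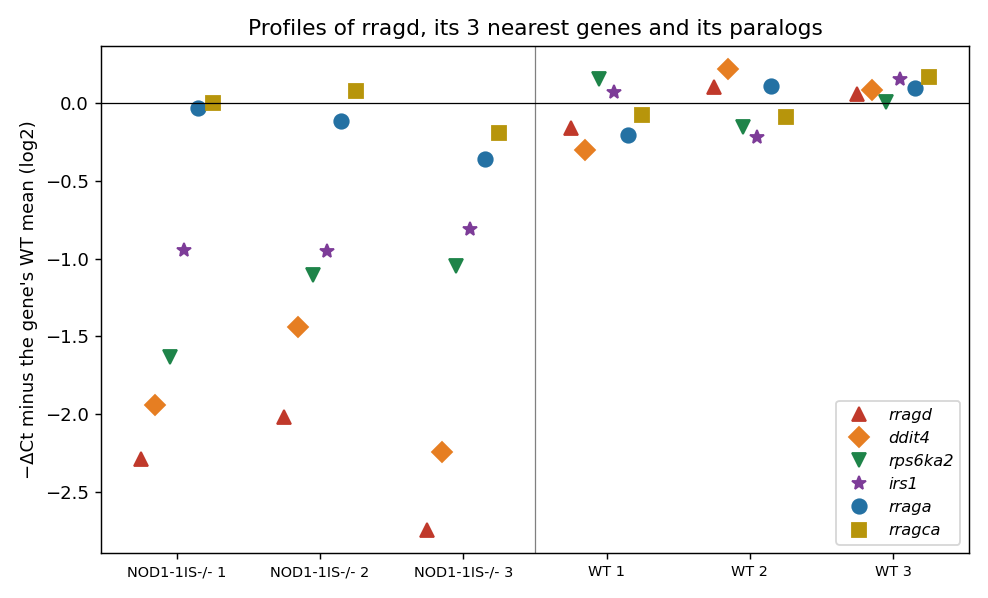
−ΔCt minus the gene's own WT mean (log2) in 3 *NOD1-1IS*-/- and 3 WT replicates for *rragd*, its 3 nearest genes and its paralogs, with points shifted sideways by gene for legibility. In *NOD1-1IS*-/-, *rragd* lies between −2.74 and −2.02 and *ddit4* between −2.24 and −1.44, while *rraga* and *rragca* stay between −0.36 and 0.07.

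The choice of reference genes moves all 3 Rag genes by the same amount and leaves the distance between them as it is. The shifts of the reference genes in raw Ct given above differ, so each single reference gives another zero. Over 11 other normalizations the log2 fold change of *rragd* ranged from −2.55 with *nono* alone to −1.35 with *acta1b* alone, and it was past the threshold in each of them. The sign of *rraga* and *rragca* depended on this choice. With *nono* alone *rraga* was at −0.37 and *rragca* at −0.24, and with *acta1b* alone they were at 0.84 and 0.96, with an adjusted p of 0.0439 and 0.0309 from limma. With *b2m* alone *rragca* was also called higher, at 0.42 (adjusted p = 0.0273 from limma), while *rraga* was at 0.30 without a call. In each of these fits limma gave the Rag genes a common standard error, 0.16 with *nono*, 0.17 with *b2m* and 0.38 with *acta1b*. All rows of such a fit share the noise of its single reference, and these p-values may be too small. With the median change of the 84 pathway genes set to 0, *rragd* was at −2.24, *rraga* at −0.06 and *rragca* at 0.07.

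**Figure D5:**
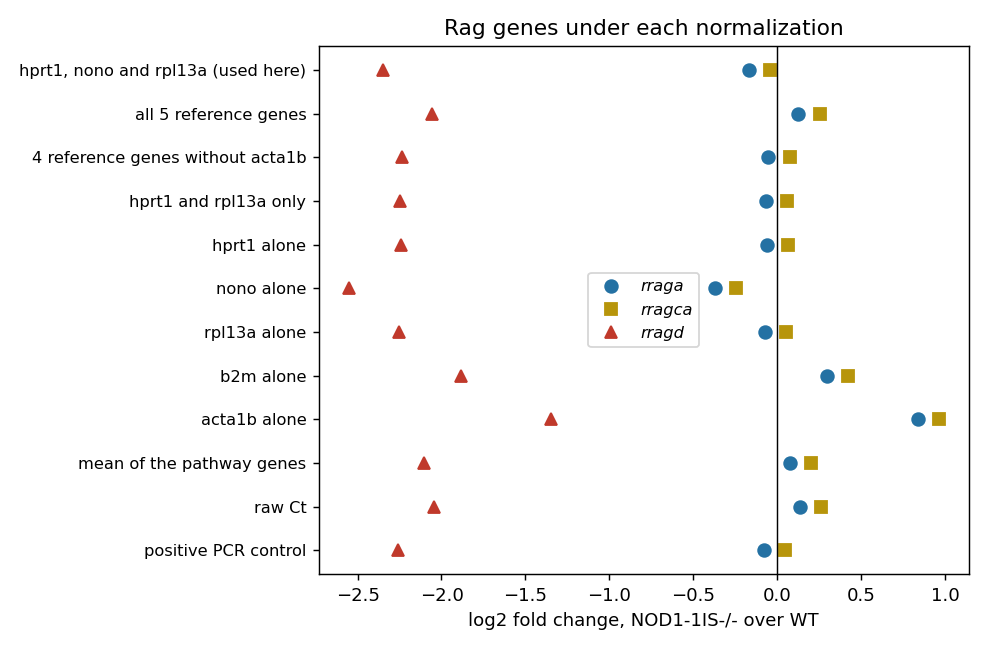
Log2 fold change of *NOD1-1IS*-/- over WT for the 3 Rag genes (points) under 12 normalizations (rows), the top one being that used in the text. The *rragd* points lie between −2.55 and −1.35, and those of *rraga* and *rragca* move on both sides of 0 at a constant distance from *rragd*.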

How the data were processed

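Values are those of the zebrafish mTOR RT2 Profiler PCR array. Per the labels, 1000 ng of TRIzol-extracted RNA was reverse transcribed with SuperScript III and amplified for 40 cycles with SYBR Green. The authors deposited the raw Ct of every well in 6 replicates, a linear ratio per gene and genotype (2 raised to −ΔCt) and their own fold changes, which were not used. Threshold and baseline settings are not given in the sources used here. The deposited ratios equal those computed from mean Ct with *hprt1*, *nono* and *rpl13a* to within 4e-07 (log2), so these genes served as reference.

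Genotypes were compared on −ΔCt with limma 3.58.1 in R 4.3.3 (lmFit, eBayes, two-sided, Benjamini-Hochberg over 84 pathway genes, threshold 0.05), tested on simulated data, and single genes with exact permutation tests. Of the 89 genes, 75 matched the gene table by RefSeq identifier. No well was filtered. PCR has no read depth, so precision rests on 3 replicates and 1 well per gene. The limma intervals also borrow from the other pathway genes, since eBayes draws the variance of each gene towards a common value. The members, the mTORC1 list and the tests were chosen with earlier results of these data known. Genes named were all rrag genes, the reference genes, the 3 genes nearest to *rragd*, and list genes past the threshold or with the 3 largest other changes. Chosen after their values were seen were *rptor*, *mtor*, *rheb*, *pik3c3*, *igf1* and *prkceb*. Alternatives were other reference genes or normalizations, a trend with robust prior, the replicate number as a block, each replicate left out, and the methods' t-test.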

Additional observations from a re-analysis of the deposited data

How the results depend on the processing

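The log2 fold change of *rragd* kept its direction and call in 20 of 20 alternatives (−2.55 to −1.35, highest adjusted p 0.00870 from limma or the methods' t-test), and its difference from *rraga* and *rragca* did so in 9 of 9 each. The sign of *rraga* turned with all 5 reference genes (0.13), *b2m* alone (0.30), *acta1b* alone (0.84, past the threshold), the pathway mean (0.076) and raw Ct (0.13). That of *rragca* turned with these (0.25, 0.42, 0.96, 0.20 and 0.26, past the threshold with *b2m* alone and *acta1b* alone), with 4 reference genes without *acta1b* (0.076), *hprt1* and *rpl13a* (0.062), *hprt1* alone (0.068), *rpl13a* alone (0.056) and the positive PCR control (0.049). With 1 replicate left out *rragca* ranged from −0.10 to 0.043. With *b2m* alone and *acta1b* alone, *deptor* was at 0.092 and 0.63, *tsc2* at 0.11 and 0.65, and *rps6kb1b* at 0.14 and 0.68, and *irs1* was at 0.10 and *rps6ka2* at −0.25, without a call, with *acta1b* alone. These follow from the construction of the references, which shift all genes of a replicate alike. Calls with *b2m* alone or *acta1b* alone rest on p-values that may be too small, as said above.

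Counts over the 84 pathway genes, 16 lower and 3 higher, moved with the reference, as did their median log2 fold change, which was −0.31 with *nono* alone and 0.89 with *acta1b* alone. The lower and higher counts were 7 and 19 with all 5 reference genes, 10 and 5 without *acta1b*, 29 and 1 with *nono* alone, 10 and 5 with *rpl13a* alone, 5 and 39 with *b2m* alone, 3 and 55 with *acta1b* alone, 9 and 18 with the pathway mean, and 7 and 21 with raw Ct. Lower genes were 10 with *hprt1* and *rpl13a*, 10 with *hprt1* alone and 9 with the positive PCR control. With 1 replicate left out there were 10 to 15 lower and 0 to 4 higher genes, the fewest without WT replicate 3. The methods' t-test on linear values gave 11 lower and 0 higher genes after Benjamini-Hochberg adjustment and 26 at an unadjusted p under 0.05, against 27 from limma. Of the 16 genes of the mTORC1 branch, 0 to 4 were lower and 0 to 12 higher over all alternatives. With the replicate number as a block, *rragd* stayed at −2.35 and 14 genes were lower and 2 higher. In this fit, and with *nono*, *b2m*, *acta1b* or the positive PCR control alone, limma gave the Rag genes a common standard error. The p-values behind the counts of these fits may be too small and the counts too high. Deviations of same-numbered replicates from their genotype mean had r = −0.22, 0.09 and −0.05 across genes. Between replicates of different number r ranged from −0.35 to 0.46. Correlations of this size cannot show whether the numbers pair the samples. No well was later than 29.0 of 40 cycles, so no value was lost to a late Ct. The width of the intervals of *rraga* and *rragca* rests on 3 replicates per genotype and on a variance that limma moderates over the 84 pathway genes.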
